A study of Mus musculus with 8 samples.

Results

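The synaptic adhesion and organizer genes of TN SST neurons, the somatostatin cells of the tuberal nucleus (TN) of the hypothalamus, were described here in 8 mice. They were 46 genes of 15 families, taken by name out of 35968 genes to which the transcripts were summed. No measured value entered the rule, but the genes were chosen with earlier results of these data known. The families were the neurexins, neuroligins, cerebellins, C1q-like proteins, neuronal pentraxins, LRRTMs, SLITRKs, FLRTs, SALMs (Lrfn genes), IL1RAPLs, calsyntenins, ELFNs, LAR-type receptor phosphatases, latrophilins (Adgrl genes) and teneurins. Every mouse was heterozygous for Cre at the Sst locus (Ssttm2.1(cre)Zjh/J / +, C57BL/6J background) and had AAV2-flex-tdTomato injected into the TN. Labelled cells were therefore those in which the Sst locus had driven Cre, whether or not Sst was still made. Live, nucleated cells with high red fluorescence were sorted from 4 females and 4 males, with 1 bulk library of total RNA per mouse. By the methods, females were cycling and males gonadally intact unless stated otherwise. Ages of the sequenced mice were not given in the sources used here.

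The libraries held 7827940 to 17648100 estimated counts, and 3 counts corresponded to 0.148 to 0.458 CPM (counts scaled to library size and TMM factor). All 8 neuronal markers checked, Sst and the GABA genes Gad1, Gad2 and Slc32a1 among them, were present, with a summed level of 2805 to 4427 TPM (counts per transcript length, scaled to a fixed total) in females and 2238 to 2849 TPM in males. The sorted material was not neurons alone. Markers of microglia summed to between 237 and 1439 TPM among females and between 527 and 2730 TPM among males, and those of astrocytes to 59.1 to 226 TPM and 166 to 361 TPM. The 6 oligodendrocyte lineage markers summed to between 325 and 1357 TPM among females and between 483 and 1246 TPM among males, and 4 endothelial markers to 15.6 to 48.6 TPM and 16.7 to 46.2 TPM. The mitochondrial tRNA ligase gene Lars2, whose count varied widely, took 9.28% to 34.3% of the counts.

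Synapses are held and specified by proteins that meet across the cleft. Neurexins and LAR-type phosphatases sit on the axon terminal and bind neuroligins, LRRTMs, SLITRKs, SALMs, IL1RAPLs and calsyntenins on the receiving cell, while cerebellins, C1q-like proteins and pentraxins are secreted or shed and bridge receptors on either side. Latrophilins, receptors coupled to G proteins, bind teneurins and FLRTs. Some short alternative exons in these genes change which partner a protein can bind. Hypothalamic SST neurons, which release GABA as well as somatostatin, could carry either side of each pair.

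Alternative exons are shown first because some of them bear on partner choice. Each exon is in capitals, with 15 bases of the neighbouring exons of the transcript in lower case, read 5′ to 3′ on the coding strand from GENCODE M21 transcripts (build GRCm38, mm10).
Nrxn3 exon of splice site 4, 90 bases: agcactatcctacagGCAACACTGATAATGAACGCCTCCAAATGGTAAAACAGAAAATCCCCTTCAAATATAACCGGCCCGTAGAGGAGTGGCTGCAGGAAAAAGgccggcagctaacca
Nlgn1 exon, 60 bases: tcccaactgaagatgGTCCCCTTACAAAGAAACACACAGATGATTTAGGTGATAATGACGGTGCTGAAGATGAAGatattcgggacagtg
Nlgn3 second exon, 60 bases: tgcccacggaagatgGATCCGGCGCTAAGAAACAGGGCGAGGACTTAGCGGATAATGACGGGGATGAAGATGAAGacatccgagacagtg
Adgrl1 exon, 15 bases: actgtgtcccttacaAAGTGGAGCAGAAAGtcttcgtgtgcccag
Tenm3 exon, 21 bases: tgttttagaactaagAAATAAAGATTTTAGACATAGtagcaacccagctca
Tenm4 exon, 21 bases: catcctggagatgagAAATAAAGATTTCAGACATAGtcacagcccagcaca
The Nrxn3 exon was at chr12:90199147-90199236, plus strand. The Nlgn1 exon (chr3:25920178-25920237, minus strand) matched the second of a pair of 60-base exons of Nlgn3 (chrX:101307075-101307134, plus strand) at 43 of 60 bases, and the first of that pair (chrX:101303072-101303131, plus strand) at 16. The Tenm3 exon (chr8:48287133-48287153, minus strand) and the Tenm4 exon (chr7:96854717-96854737, plus strand) were identical at 20 of 21 bases. The Adgrl1 exon was at chr8:83926262-83926276, plus strand.

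Neurexins with the exon of splice site 4 bind cerebellins, and some LRRTMs bind those without it. Among the neurexins the share is given here for Nrxn3 alone. The share of TPM with the exon, among coding transcripts that join both neighbouring exons, was 88.8, 100, 86.9 and 86.9% in the females and 100, 100, 95.6 and 83.1% in the males for Nrxn3. Nrxn3 transcripts with the exon thus made up most of the estimate in all 8 mice, and the sexes overlapped. These shares were apportioned among transcripts by kallisto from short reads, and the paired estimates deposited for each mouse differed by up to 19.4 percentage points for Nrxn3.

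For Adgrl1 the 15-base exon, whose insert lowers the binding of teneurins, was in 40.8, 39.2, 44.02 and 45.9% in the females and 38.98, 40.8, 42.9 and 35.7% in the males, a narrow range with the sexes overlapping. The 12-base exon of Ptprs (chr17:56421833-56421844, minus strand) was in nearly all of the estimate, with a mean of 96.3% ± 3.81 (SD, n = 8). Whether this exon bears on the binding of partners was not examined. Tenm4 transcripts with its 21-base and 27-base exons averaged 80.4% ± 5.73, those of Tenm3 84.5% ± 14.7, and Tenm1 transcripts with its 21-base exon 92.2% ± 8.79. In Tenm3 and in Tenm4 the annotated forms hold both exons or neither, so the pair gives 1 value per gene. The second Nlgn3 exon was in 60.7% ± 6.18, the first in 21.6% ± 10.01 and the Nlgn1 exon in 30.2% ± 17.1. The 2 Nlgn3 shares refer to different sets of transcripts and cannot be set against each other. That of the first exon was taken among transcripts that hold the second, and that of the second leaves out transcripts with both. The paired estimates of a mouse differed by up to 30.98 points for Nlgn1, 46.4 for the first and 20.9 for the second Nlgn3 exon, 41.8 for Tenm1, 24.3 for Tenm3 and 21.5 for Tenm4, compared with 12.4 for Adgrl1 and 9.69 for Ptprs.

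Of 46 alternative exons found in 14 of the genes, 2 (4.35%) had shares that did not overlap between the sexes, and both are named for that reason after their values were seen. A 39-base exon of Adgrl3 (chr5:81663386-81663424, plus strand) was in 78.8, 82.3, 80.6 and 87.3% in the females and 66.4, 64.7, 68.02 and 65.9% in the males, every female being above every male. A 12-base exon of Ptprd (chr4:76054589-76054600, minus strand) was in 37.9, 46.1, 57.1 and 57.8% in the females and 27.7, 23.1, 25.7 and 20.2% in the males. These shares are of the 12-base form alone. A 15-base form (chr4:76054589-76054603) was taken as a separate exon, at 0 to 16.2% in the females and 0 to 18.3% in the males. The paired estimates of a mouse differed by up to 15.1 points for the Adgrl3 exon and 39.2 for the Ptprd exon, and no test was run on shares.

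**Figure D1:**
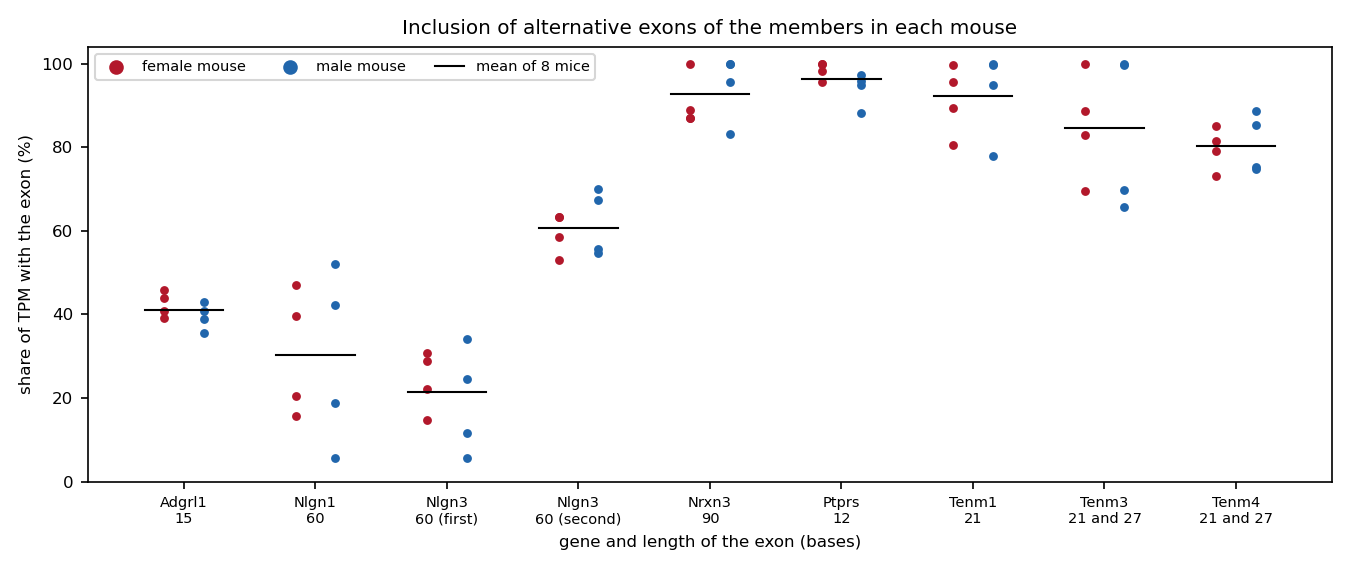
Share of TPM (y axis, %) carried by coding transcripts with each alternative exon (x axis, gene and exon length in bases), with 1 point per mouse and a line at the mean of 8 mice. Nrxn3 sits between 83.1% and 100%, Adgrl1 between 35.7% and 45.9%, and the points of Nlgn1 spread from 5.55% to 52.2%. The 2 Nlgn3 exons are shares of different sets of transcripts.

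All 46 genes were detected in every mouse, with at least 10 counts in each. By mean TPM, 7 members exceeded 100 TPM, 35 lay between 10 and 100, 4 lay between 1 and 10, and 0 lay under 1. Their median was 26.5 TPM, compared with 18.5 TPM over all genes tested. The calsyntenins and the LAR phosphatases had the highest summed levels (506 ± 88.7 and 503 ± 84.7 TPM, SD, n = 8), followed by the neurexins (296 ± 40.2) and latrophilins (263 ± 45.7), and the C1q-like genes had the lowest (8.21 ± 3.67). Total RNA libraries hold unspliced RNA, and short noncoding or intron-retaining transcripts raise a gene's TPM, so each level was also taken from coding transcripts alone. A median of 99.3% of a member's counts lay on coding transcripts, but 12 members had under 90% and 6 under 75%, from 47.5% for Lrrtm3 and 53.6% for Lrrtm1 to 72.5% for Adgrl3.

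Among presynaptic receptors, Ptprs, the heparan sulfate binding LAR phosphatase, was at 312, 362, 500.4 and 419.9 TPM in the females and 365, 280.4, 359.9 and 348 TPM in the males. It exceeded Ptprf in all 8 mice, 4.69-fold on average, and Ptprf in turn exceeded Ptprd 1.40-fold. On coding transcripts Ptprs averaged 155 TPM, still above Ptprf at 77.1. Nrxn2 was at 227, 194, 246 and 245 TPM in the females and 225, 179.9, 208 and 181 TPM in the males, 2.63-fold above Nrxn3 in mean and above it in all 8 mice. Its coding level was 101 TPM, compared with 44.1 TPM for Nrxn3.

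Of the secreted or shed organizers, Nptxr, the membrane-anchored pentraxin receptor, was at 105.0, 114, 118 and 90.3 TPM in the females and 168, 97.8, 130.4 and 114 TPM in the males. Male 1 was highest, the sexes overlapped, and Nptxr exceeded Nptx1 3.39-fold and Nptx2 6.84-fold. Cbln1, the cerebellin that bridges neurexins to delta-type glutamate receptors, was at 44.7, 47.5, 44.9 and 105.4 TPM in the females and 10.9, 13.1, 21.5 and 59.1 TPM in the males. Its levels spread over nearly an order of magnitude, with males 1 and 2 lowest and female 4 highest, and its coefficient of variation of 70.5% was exceeded among the members by that of C1ql2 alone (77.9%). C1ql2, a ligand of kainate-type receptor complexes and of neurexin 3, was at 1.10, 3.64, 1.05 and 6.62 TPM in the females and 3.22, 2.16, 5.07 and 10.8 TPM in the males. It was low in every mouse and was not separated from C1ql3 (adjusted p = 0.503, exact paired permutation test over 8 mice, 2-sided), whose mean was 4.00 ± 1.09 TPM. Cbln4 averaged 26.4 ± 3.60 TPM and Cbln2 10.1 ± 3.12 TPM.

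On the postsynaptic side, Clstn1, a calsyntenin that also guides axonal transport, was at 320.1, 315, 440.5 and 294 TPM in the females and 296, 219, 291 and 259.9 TPM in the males. Clstn1 exceeded Clstn3 1.78-fold and Clstn2 9.56-fold, in all 8 mice each. Second to Ptprs over all transcripts, it was the highest member on coding transcripts at 211 TPM. Elfn2, which binds metabotropic glutamate receptors across the cleft, was at 136, 136, 170.4 and 196 TPM in the females and 123, 102, 93.4 and 163 TPM in the males. Its coding transcripts averaged 24.2 TPM, compared with 13.5 TPM for Elfn1, a smaller lead than the 7.57-fold over all transcripts. Coding transcripts held 89.4% of the counts of Elfn2.

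Nlgn3, a neuroligin of both excitatory and inhibitory synapses, was at 58.5, 65.9, 84.6 and 62.05 TPM in the females and 55.5, 50.9, 54.6 and 55.8 TPM in the males. It exceeded Nlgn1 2.18-fold. Lrrtm3, a neurexin ligand, was at 56.6, 60.7, 68.9 and 54.7 TPM in the females and 52.4, 43.2, 47.2 and 54.2 TPM in the males, and led its family over all transcripts. On coding transcripts the order turned, with Lrrtm3 at 12.9 TPM below Lrrtm4 at 26.4 TPM (mean log2 difference -1.003). Lrrtm1 and Lrrtm2 were not separated (adjusted p = 0.977, exact paired permutation test).

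Slitrk1, a ligand of LAR phosphatases, was at 25.5, 23.3, 32.7 and 33.3 TPM in the females and 26.8, 15.4, 24.4 and 23.1 TPM in the males. It was close to Slitrk5 (adjusted p = 0.175) and above the other 3 SLITRKs, of which Slitrk3 was lowest at 9.33 ± 1.38 TPM. Lrfn1, which binds the PSD-95 scaffold, was at 31.05, 37.7, 38.9 and 31.3 TPM in the females and 34.4, 28.02, 30.01 and 28.7 TPM in the males. It exceeded each other SALM in 8 of 8 mice, and Lrfn2 and Lrfn3 at the foot of that family were not separated (adjusted p = 0.503). Il1rapl2, a close relative of the LAR phosphatase ligand Il1rapl1, was at 15.5, 15.6, 23.1 and 12.03 TPM in the females and 9.26, 13.95, 9.24 and 6.52 TPM in the males, and was not separated from Il1rapl1 (adjusted p = 0.859).

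In the latrophilin system, Adgrl1 was at 125, 129, 165 and 169 TPM in the females and 137, 108, 102 and 84.8 TPM in the males. It exceeded Adgrl3 1.27-fold (adjusted p = 0.0293) and Adgrl2 3.46-fold. Tenm1, a teneurin on the X chromosome, was at 63.8, 64.1, 76.8 and 69.9 TPM in the females and 48.8, 31.5, 44.5 and 36.1 TPM in the males, and all 4 females lay above all 4 males. On coding transcripts Tenm1 averaged 23.7 TPM, below Tenm3 at 36.2 TPM (mean log2 difference -0.70), whereas over all transcripts it lay above it. Flrt3, a ligand of latrophilins, was at 18.03, 17.9, 40.3 and 15.7 TPM in the females and 20.5, 15.6, 22.4 and 13.1 TPM in the males, with female 3 well above the rest. Across all families 55 pairs were compared in the same way, by exact paired permutation of log2 TPM with adjustment over those pairs, and 47 passed an adjusted p of 0.05 (the smallest p that 8 mice allow is 0.00781, here 0.0116 adjusted). The 8 that did not were all neighbours in level, and beside those above they were Cbln1 with Cbln4, Slitrk2 with Slitrk4 and Tenm3 with Tenm4.

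**Figure D2:**
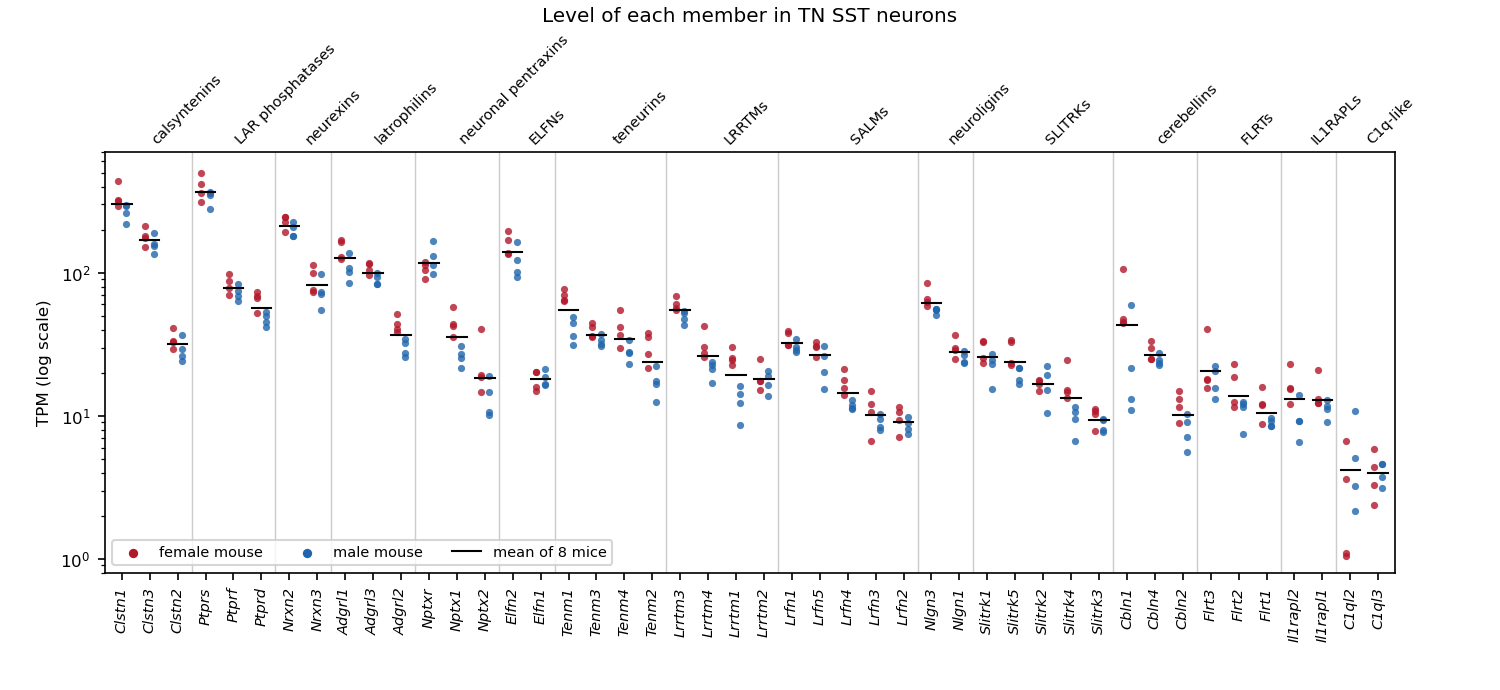
Level of each member in TPM (y axis, log scale), by family (x axis), with 1 point per mouse and a line at the mean of 8 mice. The levels run from Ptprs at 368 TPM and Clstn1 at 304 TPM to C1ql3 at 4.00 TPM.

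The study profiled TN SST neurons to ask whether they can respond to estrogens and to signals from fat. It also compared the females and males of these libraries with DESeq2 and reported many genes that differed. By edgeR's quasi-likelihood test, 0 of the 46 members passed an adjusted p of 0.05, whereas 0.158% of the 15194 genes tested did, and their lowest adjusted p was 0.0614 for Tenm1. At an unadjusted p under 0.05, 22 members (47.8%) were counted, all higher in females, compared with 9.86% of all genes higher in females and 20.5% in either direction. DESeq2 called 11 members (23.9%), all higher in females, compared with 3.86% of all genes higher in females and 6.92% in either direction. Every female lay above every male in 13 members (28.3%; 6.48% of all genes), and every male above every female in 0 (3.94% of all genes). In all, 40 of 46 fold changes were positive, with a median log2 fold change (female over male) of 0.27, compared with -0.0043 over all genes. The edgeR count rested on single mice, since without female 1 it was 5 (Tenm1, Nptx1, Tenm2, Lrrtm4 and Lrrtm1) and without male 1 it was 3 (Tenm1, Nptx1 and Lrrtm1). In bulk RNA of sorted cells, fewer cells of a type and less RNA per cell cannot be told apart.

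Among the 3 latrophilins, all were called by DESeq2 and none by edgeR. Adgrl1 (chr8:83900105-83941954) was at 390.3, 376, 468 and 467 CPM across the females (1 to 4) and 369, 319, 362 and 305 CPM across the males (1 to 4). Adgrl2 (chr3:148815583-148990555) was at 85.9, 96.2, 104.6 and 87.1 CPM in the females and 74.8, 64.2, 72.5 and 70.9 CPM in the males. Adgrl3 (chr5:81020138-81825133) was at 195, 229.6, 204 and 219.6 CPM in the females and 165, 139, 179 and 159.7 CPM in the males. In each of the 3 the lowest female exceeded the highest male, for Adgrl1 by a margin of a few CPM between female 2 and male 1. The fold changes were 0.33 ± 0.102 (SE), 0.41 ± 0.09 and 0.40 ± 0.0918 on the log2 scale. DESeq2 adjusted p was 0.0415, 0.00618 and 0.00587, and edgeR adjusted p was 0.145, 0.0831 and 0.0898. With an offset for the average effective transcript length in each mouse the Adgrl3 value was 0.19 (edgeR adjusted p = 0.411), and with the microglial markers as a covariate that of Adgrl1 was 0.20 (edgeR adjusted p = 0.705).

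The teneurins, ligands of the latrophilins, were also higher in females, and 3 of 4 were called by DESeq2. Tenm1 (chrX:42527866-43429126) was at 188, 209, 219.7 and 229 CPM in the females and 129, 85.7, 139 and 110.1 CPM in the males. The female mean exceeded the male mean 1.82-fold with no overlap (log2 fold change 0.87 ± 0.142, edgeR adjusted p = 0.0614, DESeq2 adjusted p = 3.57e-06). Tenm4 (chr7:96171246-96911093) was at 143, 178, 156 and 201 CPM in the females and 139.8, 109.5, 133 and 119.8 CPM in the males, where female 1 and male 1 nearly met (log2 fold change 0.43 ± 0.12, edgeR adjusted p = 0.122, DESeq2 adjusted p = 0.0237). Tenm2, called by DESeq2 although female 1 lay below male 3, averaged 119.9 ± 27.2 CPM against 75.1 ± 12.6 CPM, females against males (log2 fold change 0.67 ± 0.176, edgeR adjusted p = 0.11, DESeq2 adjusted p = 0.00791). Tenm3, a teneurin of topographic wiring, averaged 121 ± 16.7 CPM against 106 ± 16.3 CPM with a log2 fold change of 0.19 ± 0.133 and passed neither test. The FLRTs, the other latrophilin ligands, had fold changes of 0.34 ± 0.136 for Flrt1, 0.56 ± 0.21 for Flrt2 and 0.23 ± 0.246 for Flrt3, and none passed either test.

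Of the LRRTMs, 3 of 4 were called by DESeq2. Lrrtm1 (chr6:77242689-77257791) was at 33.5, 38.9, 39.6 and 35.4 CPM in the females and 24.5, 13.7, 21.002 and 19.4 CPM in the males, and its female mean was 1.87-fold the male mean (log2 fold change 0.91 ± 0.169, edgeR adjusted p = 0.069, DESeq2 adjusted p = 0.000286). Lrrtm4 (chr6:80018877-80810143), which binds heparan sulfate proteoglycans, was at 40.3, 45.7, 56.8 and 47.4 CPM in the females and 34.04, 26.1, 35.3 and 27.1 CPM in the males (log2 fold change 0.64 ± 0.144, edgeR adjusted p = 0.0849, DESeq2 adjusted p = 0.00491). Lrrtm3 (chr10:63928472-64090277) was at 64.3, 66.3, 71.2 and 67.3 CPM in the females and 55.4, 42.4, 52.3 and 51.1 CPM in the males (log2 fold change 0.42 ± 0.0978, edgeR adjusted p = 0.092, DESeq2 adjusted p = 0.00997). For each of them no male reached the lowest female, and male 2 was the lowest mouse. With the transcript length offset the log2 fold change of Lrrtm3 was 0.22 (edgeR adjusted p = 0.396). With the microglial covariate those of Lrrtm1, Lrrtm3 and Lrrtm4 were 0.68, 0.31 and 0.40 (edgeR adjusted p = 0.311, 0.519 and 0.486). Lrrtm2 was apart from this pattern, with 40.7 ± 4.62 CPM against 41.3 ± 4.46 CPM (females against males) and a log2 fold change of -0.02 ± 0.117.

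The neurexins, which LRRTMs bind, differed less in size. Nrxn2 was at 269, 285, 278 and 279.7 CPM in the females and 263, 234, 250.4 and 255 CPM in the males, with no overlap between the sexes but a female mean only 1.11-fold the male mean (log2 fold change 0.15 ± 0.0633, edgeR adjusted p = 0.232, DESeq2 adjusted p = 0.174). Nrxn3 had a log2 fold change of 0.22 ± 0.141, and the neuroligins Nlgn1 and Nlgn3, also neurexin ligands, of 0.19 ± 0.117 and 0.19 ± 0.0839. The LAR phosphatases were at 0.22 ± 0.086 for Ptprs, 0.27 ± 0.144 for Ptprd and 0.16 ± 0.104 for Ptprf, and 0 of these 7 genes was called by DESeq2 or edgeR.

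Of the genes whose proteins bind LAR phosphatases, Slitrk4 (chrX:64264885-64276996) was at 36.2, 38.9, 37.1 and 59.02 CPM in the females and 30.1, 19.3, 27.97 and 24.1 CPM in the males. Female 4 stood above the other females, and the sexes did not overlap with or without it (log2 fold change 0.75 ± 0.195, edgeR adjusted p = 0.106, DESeq2 adjusted p = 0.0112). With the microglial covariate the log2 fold change of Slitrk4 was 0.66 (edgeR adjusted p = 0.505). The other SLITRKs passed neither test and ranged from -0.05 for Slitrk2 to 0.44 for Slitrk5. Il1rapl1 and Il1rapl2, both X-linked, had fold changes of 0.39 ± 0.169 and 0.63 ± 0.236. The 5 SALMs ranged from 0.09 for Lrfn2 to 0.44 for Lrfn4, the calsyntenins from 0.14 for Clstn3 to 0.27 for Clstn1, and 0 of these 10 genes passed either test, although Lrfn4 and Clstn1 had every female above every male.

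The secreted and shed organizers went in both directions. Nptx1 (chr11:119538719-119547753), a pentraxin that gathers AMPA-type glutamate receptors, was at 106, 136, 149 and 126 CPM in the females and 82.1, 68.6, 74.5 and 95.7 CPM in the males, with the female mean 1.62-fold the male mean and no overlap (log2 fold change 0.69 ± 0.13, edgeR adjusted p = 0.069, DESeq2 adjusted p = 0.000234). Nptxr, its membrane-bound partner, lay on the other side at 298, 340.5, 292 and 246 CPM in the females and 478, 297, 369 and 338 CPM in the males, with overlapping sexes and neither test passed (log2 fold change -0.33 ± 0.15, edgeR adjusted p = 0.247, DESeq2 adjusted p = 0.155). Nptx2 averaged 31.3 ± 15.6 CPM against 19.5 ± 5.96 CPM, females against males. Cbln1 was at 49.3, 58.3, 41.2 and 106 CPM in the females and 11.7, 13.7, 23.3 and 65.2 CPM in the males, where male 4 lay above 3 of the females (log2 fold change 1.17 ± 0.536, edgeR adjusted p = 0.252, DESeq2 adjusted p = 0.258). Its log2 fold change was 1.97 without male 4, 0.80 without female 4, 2.06 with the microglial markers as a covariate and 0.19 with the ventromedial markers, so its size was not settled. Cbln2 was at 0.61 ± 0.256 and Cbln4 at 0.12 ± 0.135. C1ql2 and C1ql3 were at -0.83 ± 0.694 and -0.11 ± 0.318. Of these organizers Nptx1 alone passed a test, that of DESeq2. The ELFNs also had opposite signs, with 0.43 ± 0.156 for Elfn2 and -0.23 ± 0.126 for Elfn1, the ELFN known from SST interneurons of cortex and hippocampus, and neither passed a test.

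**Figure D3:**
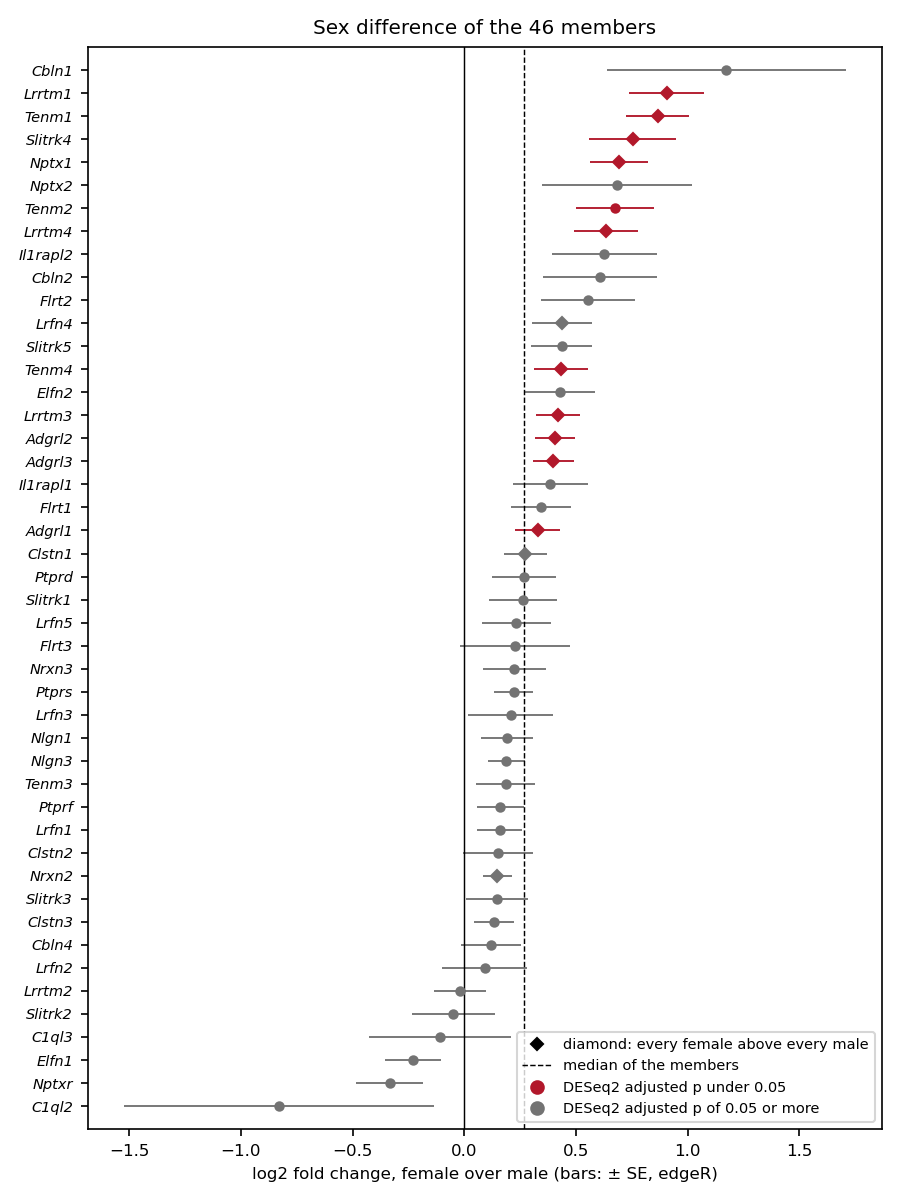
Log2 fold change, female over male (x axis, with its SE from edgeR), for each of the 46 members (y axis, ordered by value); red marks DESeq2 adjusted p under 0.05 and diamonds mark genes with every female above every male. In all, 40 members lie to the right of 0, and C1ql2, Nptxr, Elfn1, C1ql3, Slitrk2 and Lrrtm2 to the left.

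**Figure D4:**
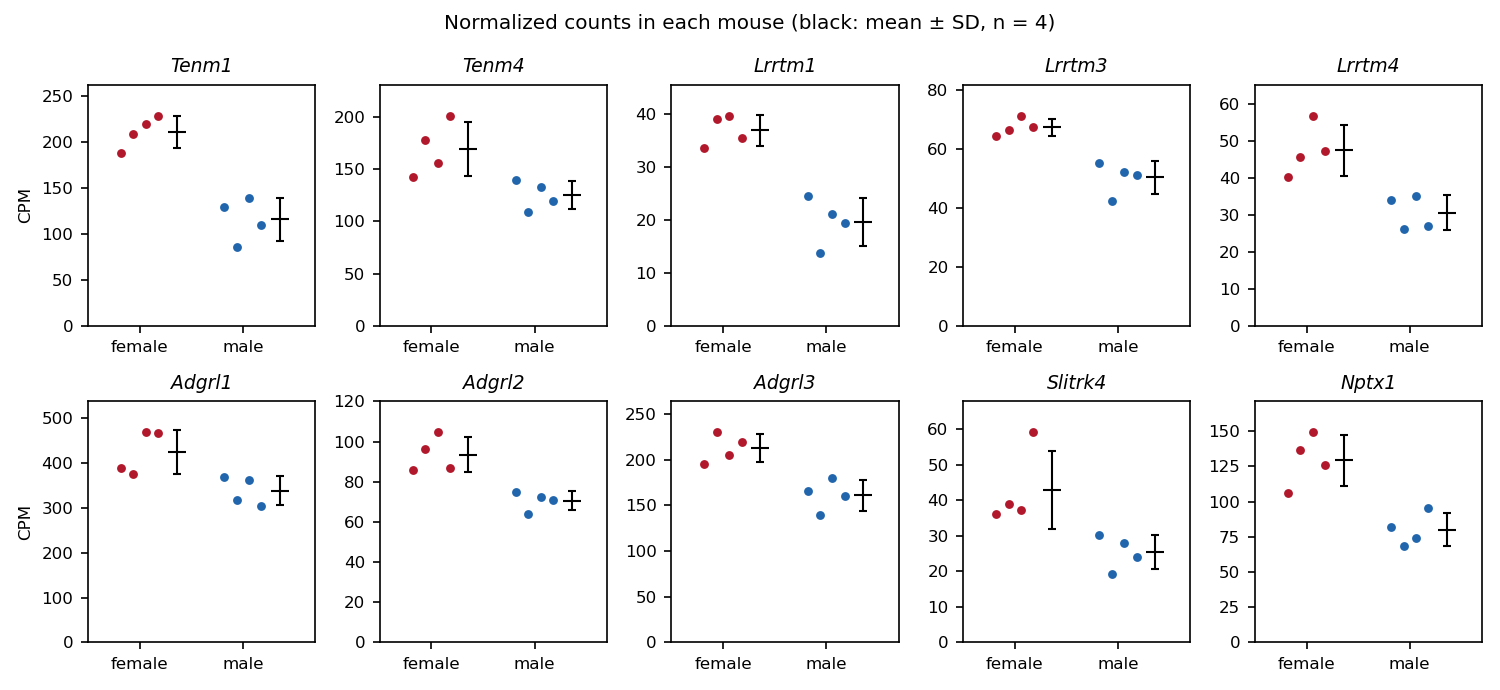
Normalized counts (y axis, CPM from 0) in each of 4 females (red) and 4 males (blue) for the 10 members called by DESeq2 whose sexes did not overlap, with the mean ± SD in black. Tenm1 averages 211 ± 17.5 CPM against 116 ± 23.5 CPM, females against males, and the gap between the sexes is narrow for Adgrl1 and Tenm4.

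Other genes of synaptic adhesion outside the 46 were read in the same fit. Of 32 such genes, 24 lay higher in females (median log2 fold change 0.21). By edgeR 0 passed the adjusted threshold. An unadjusted p under 0.05 was reached by 13 higher and 3 lower in females (50%, compared with 20.5% of all genes tested). DESeq2 called 7 (21.9%), all higher, compared with 3.86% of all genes higher in females and 6.92% in either direction. Without female 1 the edgeR count was 1 and without male 1 it was 2. Adgrb2, a brain angiogenesis inhibitor receptor, was at 193, 189, 259.7 and 225 CPM in the females and 151, 135, 143 and 157 CPM in the males (log2 fold change 0.56 ± 0.109, edgeR adjusted p = 0.069, DESeq2 adjusted p = 0.000413). Mdga1, which masks neuroligins from neurexins, was at 82.8, 89.8, 123 and 74.9 CPM in the females and 65.8, 54.7, 41.1 and 48.2 CPM in the males (log2 fold change 0.82 ± 0.183, edgeR adjusted p = 0.0831, DESeq2 adjusted p = 0.00115). In both the sexes were apart. Cadm2 and Cadm3, homophilic immunoglobulin proteins, averaged, females against males, 119 ± 15.1 CPM against 85.04 ± 10.7 CPM and 323 ± 21.9 CPM against 253 ± 26.8 CPM. Lrrc4b, a postsynaptic ligand of LAR phosphatases, averaged 210.4 ± 14.7 CPM against 174 ± 10.1 CPM, and the ephrin Efnb2 and its receptor gene Ephb1 averaged 154 ± 19.8 CPM against 116 ± 8.24 CPM and 47.98 ± 10.7 CPM against 28.99 ± 6.04 CPM. The 3 with an unadjusted p under 0.05 that were lower in females, named after their values were seen, were Ntng2 (-0.86 on the log2 scale), Sdk1 (-0.43) and Nectin3 (-0.46).

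The members' sex difference went along with other differences between the libraries. The 8 neuronal markers all lay higher in females (median log2 fold change 0.32). Of 6 markers of the neighbouring ventromedial nucleus 5 were higher, with a median of 0.64. Their summed levels were 295 to 460 TPM among females and 129 to 265 TPM among males. The exception was Nr5a1 (-0.44), and Sox14 was near 0 (0.01), at means of 2.32 and 1.57 TPM. Gda and Slc17a6 were the highest of the 6, at means of 101 and 90.5 TPM. The 6 microglial, 5 astrocyte and 6 oligodendrocyte lineage markers were all lower in females, with medians of -1.32, -0.80 and -0.90, and 3 of 4 endothelial markers were lower, with a median of -0.38. By edgeR 0 of these markers passed the adjusted threshold, while an unadjusted p under 0.05 was reached by 3 neuronal, 2 ventromedial, 1 astrocyte, 4 microglial and 3 oligodendrocyte lineage markers. DESeq2 called 3 neuronal, 1 ventromedial and 1 oligodendrocyte lineage marker. Over all genes tested, 20.5% had an unadjusted edgeR p under 0.05 and DESeq2 called 6.92%. By mouse, the median log2 deviation of the 46 members from their means over 8 mice was 0.03, 0.20, 0.19 and 0.17 across the females (1 to 4) and -0.05, -0.26, -0.10 and -0.11 across the males (1 to 4). All 4 females thus lay above all 4 males. The summed microglial level was 1439, 380.4, 237 and 602 TPM in the females and 527, 2729.6, 1411 and 2334 TPM in the males. Male 2 was highest in microglial markers and lowest in the members. Female 1 was highest in microglial markers and lowest in the members among the females. Among the males the members fell at each step up in microglial markers, and among the females they did so apart from females 2 and 3. Between the sexes, male 1, at 527 TPM, lay below female 1, at 1439 TPM, in the members (-0.05 against 0.03). With the microglial markers as a covariate the median log2 fold change of the members was 0.14 and 36 of 46 were higher in females, and with the ventromedial markers it was 0.27 and 38 of 46. Beyond these values, the part of other cell types in the members' sex difference was not tested.

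**Figure D5:**
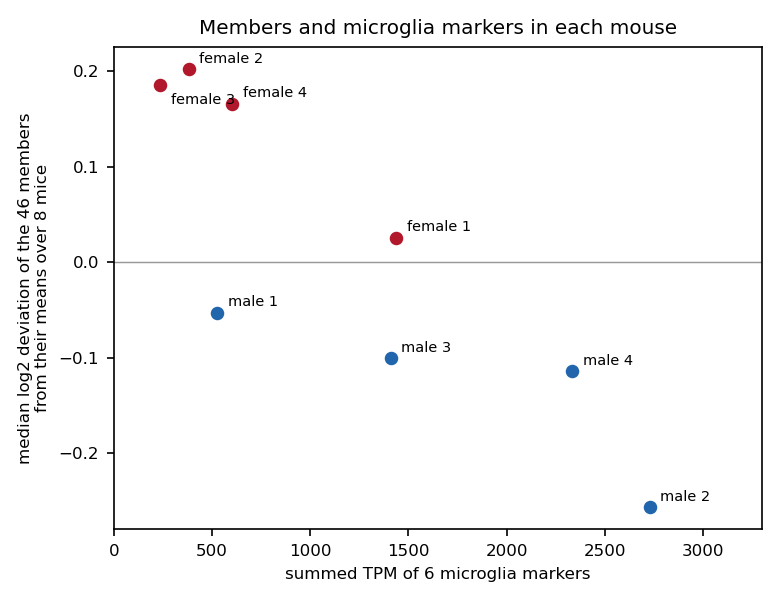
Median log2 deviation of the 46 members from their means over 8 mice (y axis) by the summed TPM of 6 microglia markers (x axis), 1 point per mouse. The 4 females lie above 0 and the 4 males below, and male 2, at 2729.6 TPM, is lowest.

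Many of the genes are long, a feature that the choice by name did not use. The median genomic span was 46.6 kb, compared with 23.3 kb for all genes tested, and 17 of 46 (37.0%) spanned at least 100 kb, compared with 14.8% of all genes. Of those 17, 17 lay higher in females (median log2 fold change 0.39), and 7 (41.2%) were called by DESeq2. Of the 29 shorter members, 23 were higher with a median of 0.23, and 4 (13.8%) were called. DESeq2 called 3.86% of all genes tested as higher in females. That share was not taken for genes of each span, so these counts cannot be set apart from span. Over all 2252 tested genes of at least 100 kb, 1389 were higher in females and the median was 0.09. The 6 X-linked members, Nlgn3, Slitrk2, Slitrk4, Il1rapl1, Il1rapl2 and Tenm1, had a median of 0.51 and the 40 autosomal members one of 0.25. The part of span and of chromosome in the members' sex difference was not tested.

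Some counts could be shared with other genes. The families did not share sequence with one another to any extent, since at most 0.660% of a member's 31-base words occurred in another member. In 5 members over 10% of such words occurred in other annotated genes that overlap them. These were C1ql3 (62.8%), Nlgn3 (41.9%), Lrrtm4 (24.5%), Nptxr (17.1%) and Adgrl1 (12.2%). For C1ql3, Lrrtm4 and Adgrl1 the other gene is antisense. The strand setting of the counting was not given in the sources used here, so the levels of these genes are uncertain to that extent. For Nlgn3 the other gene, Gm21986, is on the same strand and had no count of its own here. Strand could not separate the pair, and the level of Nlgn3 is uncertain as well. Of the overlapping genes, Npcd was counted at 10.8 CPM beside Nptxr at 332, and Gm10644 at 1.39 CPM beside Adgrl1 at 382.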

How the data were processed

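RNA from sorted tdTomato-positive TN cells of each mouse was made into stranded total RNA libraries and sequenced single-end. The authors quantified reads against the mouse transcriptome (mm10) with kallisto 0.46.2, per the submitters' processing notes, and deposited estimated counts, effective lengths and TPM per transcript. Each table lists the same transcripts in 2 blocks with different values, whose origin is not given in the sources used here. Estimated counts of both blocks were summed, TPM was averaged, and transcripts were summed to genes with GENCODE M21. Unmatched transcripts held 0.429% to 0.611% of counts.

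Gene counts were rounded and fitted with edgeR 4.0.16 (quasi-likelihood F-test, TMM, filterByExpr by sex, Benjamini-Hochberg over 15194 genes). All 46 members passed the filter. DESeq2, the tool of the study, was run here in version 1.42.0 on the same genes as the first alternative. Scripts were tested on simulated data. SE is that of edgeR's log2 fold change. Levels within a family were compared by exact paired permutation (log2 TPM, pseudocount 0.1). Values in every mouse were given for members past 0.05 in edgeR, for those past 0.05 with DESeq2 whose sexes did not overlap, and for the highest member of each family. Other adhesion genes past 0.05 in either test were named, and members outside these rules were described by family. Exon shares used coding transcripts and exons with at least 100 counts in every mouse, and were added after gene values had been seen. Not every such exon is reported here. Genes and lists were chosen with earlier results of these data known. Alternatives changed normalization, filter, length offset, block, gene set and covariates, or left out 1 mouse. At 4 mice per sex, p-values measure the spread between mice, not the error of the transcript assignment.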

Additional observations from a re-analysis of the deposited data

Results flagged for a closer look

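Among the 92 groups of 4 mice tested for a value far from the rest (46 members in each sex), 2 stood out, and chance alone sets apart about 1 in 20 such groups. Slitrk4 in female 4 was at 59.02 CPM, compared with 36.2 to 38.9 CPM in the other females. Elfn2 in male 4 was at 117 CPM, compared with 73.0 to 79.1 CPM in the other males.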

How the results depend on the processing

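The number of members called by edgeR was 0, and was 11 with DESeq2, 1 with no filter on low counts and 1 with the first block of values alone, the 1 being Tenm1 in both cases. Leaving out 1 mouse at a time gave 0 to 5 members. For the other adhesion genes the count was 0 with edgeR, 7 with DESeq2 and 0 to 2 with 1 mouse left out. The median log2 fold change of the members stayed positive in every fit, from 0.14 with the microglial covariate to 0.35 without male 1. Fitted with a replicate block, it was 0.27 and the count of members called was 0. The sample titles number the mice within each sex and do not say that equal numbers were paired. Same-numbered mice had correlations of -0.40, -0.16, 0.036 and 0.072 in their deviations, values that cannot exclude shared handling. The block changed no call of a member, but the main fit had called 0.

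Of the sex differences, that of Flrt3 turned to -0.19 with the microglial covariate and to -0.056 without female 3. Leaving out 1 mouse also took the fold changes of Lrrtm2 (-0.10 to 0.06), Slitrk2 (-0.21 to 0.12), Lrfn2 (-0.07 to 0.21) and C1ql3 (-0.41 to 0.06) across 0. The transcript length offset lowered Adgrl3 from 0.40 to 0.19 and Lrrtm3 from 0.42 to 0.22, and the ventromedial covariate lowered Cbln1 from 1.17 to 0.19. Coding transcripts alone turned Lrrtm3 against Lrrtm4 to -1.003 and Tenm1 against Tenm3 to -0.70 on the log2 scale. Il1rapl2 against Il1rapl1, near 0, ranged from -0.126 to 0.0799 with 1 mouse left out, above 0 without male 1, 3 or 4. The cause was not tested. Of 180 values for pairs within families, 12 lost their call in these alternatives. With 4 mice per sex and 7827940 counts in the shallowest library, small differences in members such as C1ql2 and C1ql3 were not detectable.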
